A study of Mus musculus with 12 samples.

Results

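The unfolded protein response and the integrated stress response were followed through 33 genes in DC2.4, a line of immortalised dendritic cells of the mouse. Taken by symbol, they were endoplasmic reticulum (ER) chaperones, disulfide isomerases, degradation factors, stress sensors and genes of the ATF4 programme. No measured value entered that rule, but the list was chosen with earlier results of these data known. All 33 were found among the 42687 genes of the count table, and all 33 were among the 13261 genes with enough counts to be tested. The 12 libraries formed 4 groups of 3, all from wild-type cells: cells given DNAse+ATEVs (vesicles of activated T cells pretreated with Baseline-ZERO DNase, 15 µg/mL), ATEVs (untreated vesicles of that kind, 15 µg/mL), NTEVs (vesicles of non-activated T cells, 30 µg/mL) and PBS, the vehicle. The labels state a vesicle DNA amount of 5 µg/mL after the NTEVs dose, and it is unclear whether that amount holds for the ATEVs dose too. The cells were collected and plated again the day after treatment, with 3 repeats, and it is unclear whether these were rounds on the same cells or separate experiments. As no label ties replicates to separate cultures, p-values here weigh group differences only against the spread between these libraries, which may be technical.

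The ER folds secreted and membrane proteins, and unfolded protein in it activates the sensors IRE1 (gene Ern1), PERK (gene Eif2ak3) and ATF6. IRE1 splices Xbp1 mRNA, and XBP1 and cleaved ATF6 then induce chaperones and degradation factors. PERK and the other eIF2 kinases phosphorylate the initiation factor eIF2, which lowers general translation while the transcription factor ATF4 is made, and ATF4 with its partner CHOP (gene Ddit3) induces amino acid synthesis, transport and feedback genes. Dendritic cells are known for a constitutively active IRE1 and XBP1 arm. Splicing of Xbp1, phosphorylation of eIF2 and translation of Atf4 are not seen in gene counts.

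The stress response elements matched in the members' promoters are shown here because they mark which members share a known control sequence. RefSeq windows of the mouse build GRCm38.p6, from 250 bases before to 50 bases after a start site, were matched by symbol for 30 of the 33 members (not for Hyou1, Manf and Atf6). Both strands were searched for the ER stress response element, CCAAT followed after 9 bases by CCACG, its shorter second form, ATTGG followed after 1 base by CCACG, the unfolded protein response element TGACGTGG and the amino acid response element of ATF4, TGATG followed after 1 base by AA. Matches are written 5′ to 3′ in the orientation of the motif, with the fixed letters in capitals.
Hspa5: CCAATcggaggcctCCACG
Hsp90b1: CCAATcgcaaggagCCACG
Hsp90b1: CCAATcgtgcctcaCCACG
Calr: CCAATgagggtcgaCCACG
Canx: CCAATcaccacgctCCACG
Dnajc3: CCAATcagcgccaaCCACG
Creld2: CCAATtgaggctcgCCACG
Pdia6: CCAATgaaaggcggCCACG
Syvn1: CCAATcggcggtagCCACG
Dnajb11: ATTGGcCCACG
Herpud1: ATTGGgCCACG
The first element lay in 8 member windows, with 2 copies in that of Hsp90b1, against 0.119% of all 32851 windows of that length. The second form lay in the windows of Dnajb11 and Herpud1, against 0.0365% of all windows. The amino acid response element lay in the windows of Herpud1, Atf3, Trib3, Chac1 and Asns, 5 members, against 3.97% of all windows, and TGACGTGG was in 0 member windows, against 0.676% of all. A match is a description of the letters and says nothing about binding, and the absence of one says only that these letters are not in this window.

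**Figure D1:**
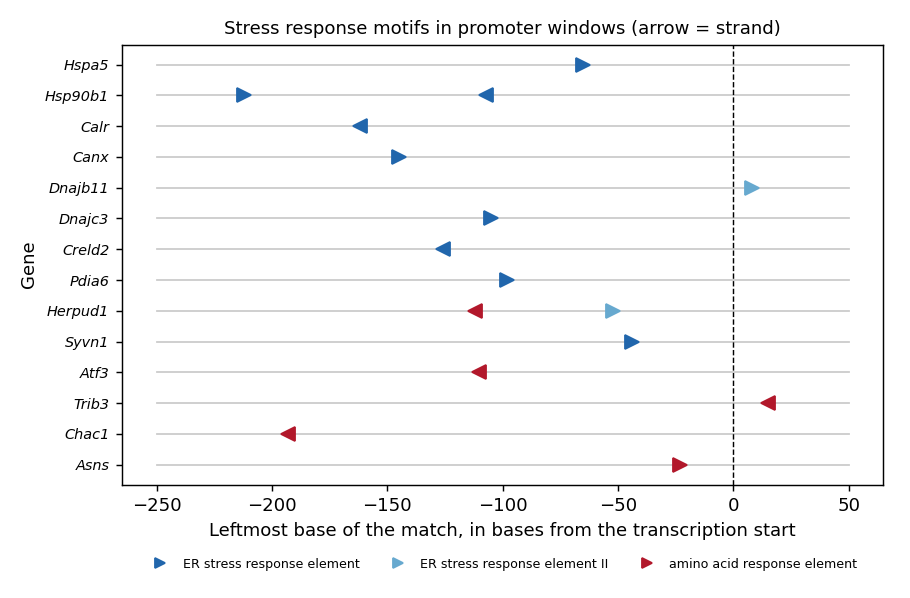
Position of each motif match in the promoter window of the 14 members that had at least 1, in bases from the transcription start (dashed line at 0). Arrows point right for the gene's own strand and left for the other strand. The matches of the ER stress response element lie between 212 and 44 bases before the start.

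Whole windows are given for Hsp90b1 and Canx, the chaperones with the largest fold changes below 0 after ATEVs, for Trib3, and for Ddit3, which had no match. All are RefSeq sequence of GRCm38.p6 on the gene's own strand, 5′ to 3′. Capitals mark the fixed letters of a match, which read as the reverse complement where it lies on the other strand. The second copy in Hsp90b1 and the match in Trib3 lie on that other strand.
Hsp90b1, chr10:86705395-86705694, minus strand: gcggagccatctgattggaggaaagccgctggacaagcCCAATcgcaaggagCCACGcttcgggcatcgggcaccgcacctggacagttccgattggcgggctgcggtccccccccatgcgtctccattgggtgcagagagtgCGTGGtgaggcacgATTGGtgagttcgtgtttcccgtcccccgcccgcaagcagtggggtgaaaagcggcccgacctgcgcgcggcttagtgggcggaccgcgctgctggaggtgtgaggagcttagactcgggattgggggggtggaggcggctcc
Canx, chr11:50325624-50325923, minus strand: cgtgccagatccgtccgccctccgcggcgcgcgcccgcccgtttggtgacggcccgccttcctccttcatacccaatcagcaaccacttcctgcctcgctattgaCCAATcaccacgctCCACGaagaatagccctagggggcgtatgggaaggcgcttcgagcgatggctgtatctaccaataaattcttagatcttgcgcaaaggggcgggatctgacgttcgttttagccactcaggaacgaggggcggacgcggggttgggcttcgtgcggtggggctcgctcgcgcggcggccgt
Trib3, chr2:152344011-152344310, minus strand: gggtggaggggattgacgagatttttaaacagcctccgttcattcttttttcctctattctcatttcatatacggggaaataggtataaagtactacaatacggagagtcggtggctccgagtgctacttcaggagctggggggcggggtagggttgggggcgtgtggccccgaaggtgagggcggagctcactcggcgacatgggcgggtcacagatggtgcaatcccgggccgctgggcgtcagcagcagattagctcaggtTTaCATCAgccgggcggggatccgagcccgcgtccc
Ddit3, chr10:127290543-127290842, plus strand: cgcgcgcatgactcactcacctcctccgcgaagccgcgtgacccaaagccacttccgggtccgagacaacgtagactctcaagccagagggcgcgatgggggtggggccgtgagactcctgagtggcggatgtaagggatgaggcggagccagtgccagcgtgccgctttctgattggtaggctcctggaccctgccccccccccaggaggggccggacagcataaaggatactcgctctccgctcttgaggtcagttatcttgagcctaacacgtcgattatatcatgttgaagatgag

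The libraries held 19392942 to 30383572 counts, and TMM factors ran from 0.949 to 1.06. Levels are in CPM, counts relative to the library total after TMM scaling. In these bulk libraries, fewer cells of a kind and less RNA per cell cannot be told apart. Against the label of a dendritic cell line, the marker set gave a mixed picture: 10 of 12 dendritic cell markers passed the filter and summed to 1760 to 2190 CPM, but H2-Ab1, an MHC class II chain, had 34 counts over all libraries and Flt3, the growth factor receptor of dendritic cells, had 6. The marker sum ran over 1760 to 1940 CPM after DNAse+ATEVs, 2160 to 2190 CPM after ATEVs, 1830 to 1940 CPM after NTEVs and 1830 to 1920 CPM after PBS. Itgax (CD11c) was higher against PBS with a log2 fold change of 1.29 after ATEVs and 1.32 after NTEVs (adjusted p 0.0116 and 0.0185), as was Itgam (CD11b; 0.51 and 0.54, adjusted p 0.0435 and 0.048). After DNAse+ATEVs Itgax also lay above PBS (31.83, 30.96 and 40.85 CPM against 12.7, 20.28 and 15.34 CPM). Its log2 fold change there was 1.1, in a comparison with 0 genes called. Itgam lay above PBS there too (116.4, 113 and 113.6 CPM against 95, 98.87 and 88.73 CPM). Without overlap 4 of 10 tested markers were higher there and 2 lower, against 7.69% and 5.68% of all genes. Irf8, a transcription factor of dendritic cells, was higher after ATEVs than after PBS (0.55, adjusted p 0.0322) and lower after DNAse+ATEVs than after ATEVs (-0.70, adjusted p 0.0136). Of the 10 tested markers 3 were called against PBS after ATEVs and 2 after NTEVs, against 4.74% and 2.31% of all genes. Markers with log2 fold changes below 0 against PBS numbered 1 after ATEVs, 4 after NTEVs (lowest -0.549) and 6 after DNAse+ATEVs. Of 12 T cell markers, Cd3e and Cd8a were at 0 in every library, Cd3d had 7 counts and Cd4 had 18, and 2 (Cd28 and Lck) passed the filter. The summed T cell markers ran over 53 to 59.7 CPM after DNAse+ATEVs, 43.2 to 62.2 CPM after ATEVs, 34.8 to 52.5 CPM after NTEVs and 59.5 to 102 CPM after PBS, and Cd28 made up most of each sum. Cd28 was lower than in PBS after ATEVs (-0.83, adjusted p 0.0488) and after NTEVs (-1.07, adjusted p 0.0266). After DNAse+ATEVs it also lay below PBS (47.47, 48.1 and 37.89 CPM against 50.94, 70.89 and 94.63 CPM). Its log2 fold change there was -0.70 and not called, and 5.68% of all genes lay below PBS without overlap. The part of these markers in the values of the members was not tested. Of 7 B and plasma cell markers, Ms4a1 was at 0 and 1 passed the filter.

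Compared per kilobase of annotated exon, which allows levels of different genes to be set side by side, the most abundant members were Calr (340.6 CPM per kb), a lectin chaperone that binds calcium, Phgdh (269 CPM per kb), the first enzyme of serine synthesis, and Pdia3 (264 CPM per kb), a disulfide isomerase that works on glycoproteins and in MHC class I loading. They were followed by Atf4 (218 CPM per kb), Hsp90b1 (213 CPM per kb), Canx (174 CPM per kb), Psat1 (165 CPM per kb) and Hspa5 (162 CPM per kb). The lowest were Chac1 (0.744 CPM per kb), a glutathione-degrading enzyme and ATF4 target, Dnajb9 (4.03 CPM per kb), Eif2ak3 (5.46 CPM per kb) and Ern1 (5.66 CPM per kb). The genes of the sensors PERK and IRE1 were thus among the 4 lowest members, as was Dnajb9 of the chaperone list. Atf6, the gene of the third sensor, stood higher (20.7 CPM per kb). Other chaperones (Calr, Hsp90b1, Canx and Hspa5) were among the most abundant members.

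No member passed the test in any of 5 comparisons between the groups. After DNAse+ATEVs against PBS 0 of 33 members were called by edgeR's quasi-likelihood test (adjusted p under 0.05), as were 0% of all tested genes. After ATEVs against PBS 0 of 33 were called, against 4.74% of all genes, and after NTEVs against PBS 0 of 33, against 2.31%. Between DNAse+ATEVs and ATEVs 0 of 33 were called, against 1.46% of all genes, and between ATEVs and NTEVs 0 of 33, against 0.935%. The first 3 comparisons share the PBS libraries. At an unadjusted p under 0.05 there were 3 members for DNAse+ATEVs against PBS (Atf5, Trib3 and Xbp1; 5.96% of all genes), 4 for ATEVs against PBS (Canx, Dnajb9, Herpud1 and Shmt2; 26.8%), 2 for NTEVs against PBS (Herpud1 and Xbp1; 19.1%), 3 for DNAse+ATEVs against ATEVs (Canx, Dnajb9 and Herpud1; 15.2%) and 1 for ATEVs against NTEVs (Dnajb9; 13.4%). DESeq2 called 2 members for ATEVs against PBS (Canx and Dnajb9), 1 for NTEVs against PBS (Xbp1), 1 for ATEVs against NTEVs (Dnajb9) and 0 in both other comparisons. Of the 13261 genes that passed the filter DESeq2 called 1538, 861 and 373 in the comparisons with a member called, in that order. It called 38 genes for DNAse+ATEVs against PBS and 495 for DNAse+ATEVs against ATEVs.

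**Figure D2:**
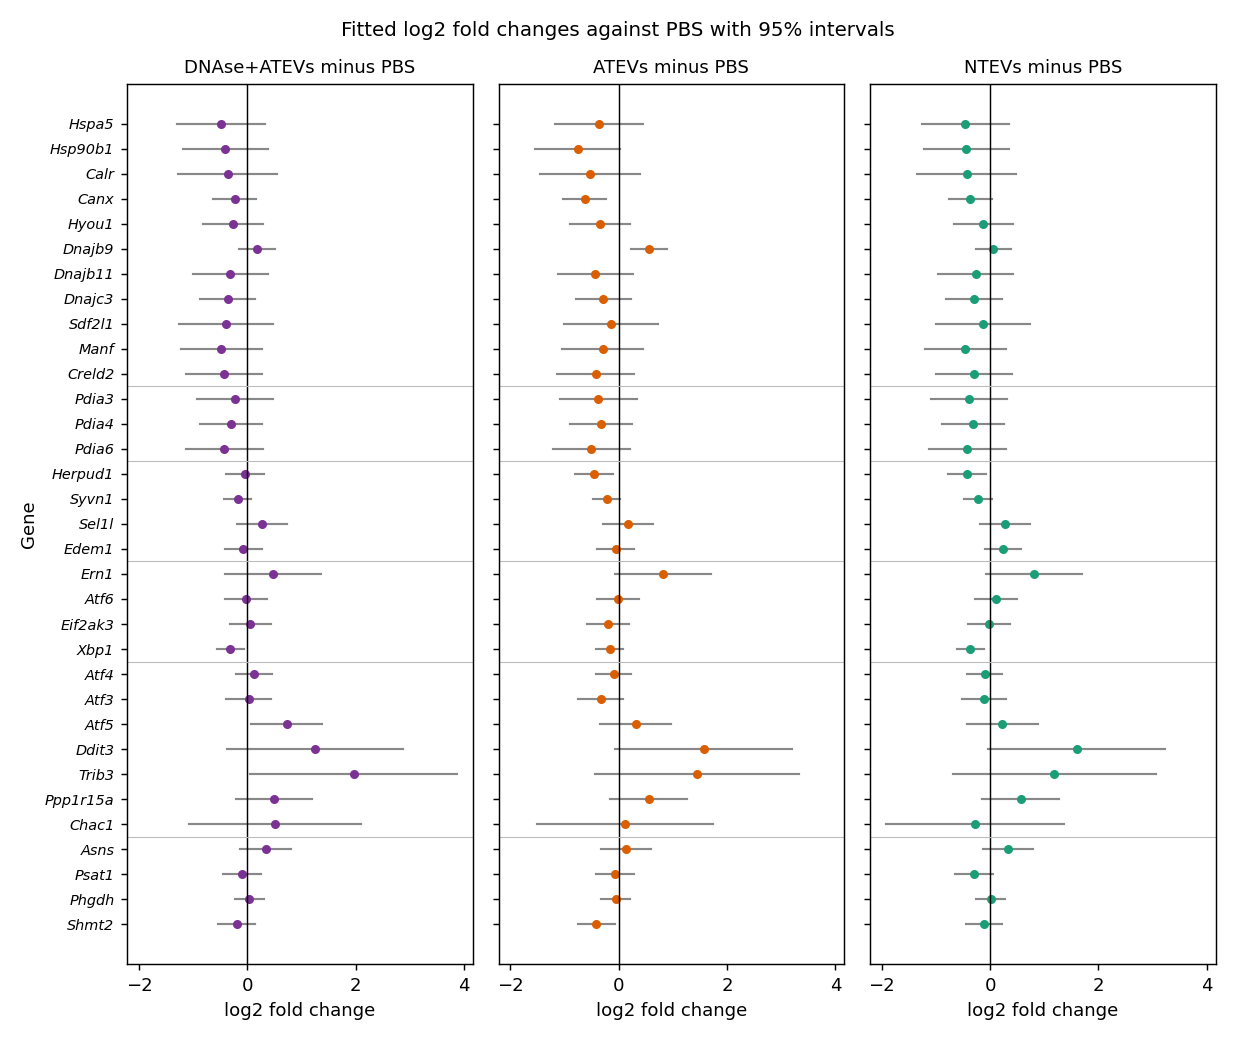
Log2 fold change of each of the 33 genes (dots) with its 95% interval (lines) from the edgeR fit, for DNAse+ATEVs, ATEVs and NTEVs against PBS, with genes grouped by role from chaperones at the top to synthesis enzymes at the bottom. Most chaperone dots lie left of 0 in all 3 panels except Dnajb9, and the intervals of Ddit3, Trib3 and Chac1 are the widest.

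Among the 11 chaperones and cofactors, Dnajb9 (ENSMUSG00000014905; the protein ERdj4, a cochaperone of Hspa5 that represses IRE1) had the smallest adjusted p of all members. Its level was 10.9, 10.4 and 8.85 CPM after DNAse+ATEVs, 13.7, 12.5 and 12.8 CPM after ATEVs, 8.66, 9.97 and 8.999 CPM after NTEVs, and 9.71, 7.84 and 8.96 CPM after PBS. The 3 ATEVs libraries lay above every library of the other groups, which overlapped one another. The log2 fold change was 0.56 ± 0.15 for ATEVs against PBS (SE; 95% interval 0.23 to 0.89; adjusted p 0.0524), just short of the threshold. It was -0.37 ± 0.15 for DNAse+ATEVs against ATEVs (adjusted p 0.271) and 0.50 ± 0.15 for ATEVs against NTEVs (adjusted p 0.189). Under DESeq2 the values against PBS and against NTEVs were called (0.55, adjusted p 0.00779, and 0.49, adjusted p 0.0474). The estimate for ATEVs against PBS stayed between 0.47 and 0.65 over all alternatives, with adjusted p between 0.00779 and 0.219.

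Canx (ENSMUSG00000020368), the membrane-bound lectin chaperone calnexin, was lowest rather than highest after ATEVs. It was at 1105, 749 and 695 CPM after DNAse+ATEVs, 642, 652 and 645 CPM after ATEVs, 916, 666 and 742 CPM after NTEVs, and 1108, 1023 and 866 CPM after PBS. The ATEVs libraries lay within 10 CPM of one another and below every library of the other 3 groups. The log2 fold change was -0.63 ± 0.18 for ATEVs against PBS (95% interval -1.02 to -0.23; adjusted p 0.0648). It was 0.40 ± 0.18 for DNAse+ATEVs against ATEVs (adjusted p 0.327) and -0.26 ± 0.18 for ATEVs against NTEVs (adjusted p 0.546). DESeq2 called the value against PBS (-0.63, adjusted p 0.0178), and over the alternatives that adjusted p ran from 0.0178 to 0.219. Canx and Dnajb9 are thus both ER folding factors whose ATEVs libraries stood apart from all others, in opposite directions, though neither was called by edgeR. Against PBS alone, the ATEVs libraries lay without overlap above PBS for 16.3% of all genes and below for 16.8%. The share of all genes whose ATEVs libraries stood apart from all other groups was not computed.

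Hspa5 (ENSMUSG00000026864; the protein BiP, the central ER chaperone, which also holds the sensors inactive) was at 999, 389.8 and 432 CPM after DNAse+ATEVs, 522, 639.9 and 815 CPM after ATEVs, 864, 370.1 and 620.4 CPM after NTEVs, and 1172, 739 and 635 CPM after PBS. Every group spanned a wide range and all groups overlapped. Its log2 fold changes against PBS were -0.48 ± 0.37 after DNAse+ATEVs, -0.36 ± 0.37 after ATEVs and -0.46 ± 0.37 after NTEVs (adjusted p 0.83, 0.545 and 0.529). Hsp90b1 (ENSMUSG00000020048; GRP94, the ER paralogue of HSP90, needed for folding of Toll-like receptors and integrins) was at 1399, 584 and 541 CPM after DNAse+ATEVs, 497, 696 and 789 CPM after ATEVs, 1168, 528 and 774 CPM after NTEVs, and 1385, 1119 and 842 CPM after PBS. Its ATEVs libraries lay below the PBS libraries (-0.76 ± 0.36, adjusted p 0.199), while the other groups overlapped with PBS. Other annotated genes overlap 15.7% of the exon length of Hsp90b1, and the strand setting of the counting is not given, so some of its counts could belong to them.

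**Figure D3:**
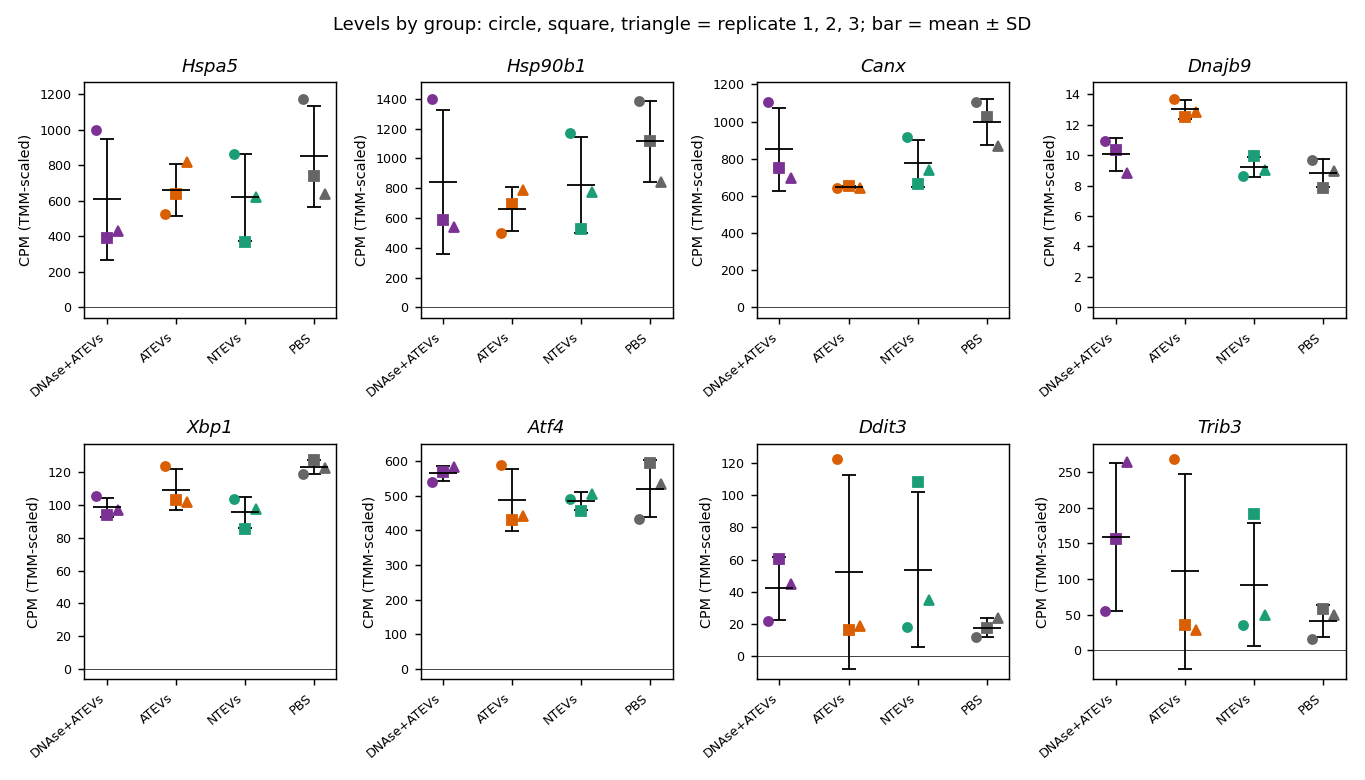
TMM-scaled CPM of 8 members in each group, with replicates 1, 2 and 3 as circle, square and triangle and black bars for mean ± SD (n = 3). Dnajb9 is highest and Canx lowest in the ATEVs libraries, and Xbp1 is lower than PBS after DNAse+ATEVs and NTEVs. Ddit3 and Trib3 vary more within groups than between them.

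The 14 chaperones and isomerases also held Calr, Hyou1 (an exchange factor for Hspa5), Dnajb11 and Dnajc3 (cochaperones, of which Dnajc3 also inhibits PERK), Sdf2l1 (a partner of Dnajb11), Manf (a secreted stress-induced survival factor), Creld2 (a stress-induced ER protein with disulfide exchange activity), Pdia3, Pdia4 and Pdia6. Against PBS 13 of the 14 chaperones and isomerases had log2 fold changes below 0 after DNAse+ATEVs, 13 of 14 after ATEVs and 13 of 14 after NTEVs, and the exception was Dnajb9 in each. The medians were -0.36, -0.37 and -0.34 on the log2 scale, beside 0.00, 0.03 and -0.00 over all tested genes. As the 3 comparisons share the PBS libraries, these are not separate observations, and PBS replicate 1 had the highest chaperone levels. Without it the medians were -0.16 after DNAse+ATEVs, -0.14 after ATEVs and -0.12 after NTEVs, with 12, 12 and 11 of 14 below 0. Without replicate 1 of every group, an alternative chosen after seeing the data, the ATEVs median was -0.01 with 8 of 14 below 0, while the medians after DNAse+ATEVs and NTEVs were -0.54 and -0.42 with 13 of 14 each. Without DNAse+ATEVs replicate 1 the first was -0.79. Without DNAse+ATEVs replicate 2 or 3 it was -0.19 or -0.17. The ATEVs median was -0.23 without ATEVs replicate 1 and -0.59 without ATEVs replicate 3, and the NTEVs median was -0.60 without NTEVs replicate 1 and -0.16 without NTEVs replicate 2.

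Among the 4 members of ER-associated degradation, the disposal route for misfolded proteins, Herpud1 (a membrane scaffold of the ubiquitin ligase complex) was at 65.4, 64.2 and 52.0 CPM after DNAse+ATEVs, 55.2, 35.5 and 45.1 CPM after ATEVs, 46.3, 49.9 and 42.5 CPM after NTEVs, and 52.7, 65.7 and 68.2 CPM after PBS. The NTEVs libraries lay below the PBS libraries and the ATEVs libraries overlapped with them through 1 library. The log2 fold change was -0.46 ± 0.16 for ATEVs against PBS (adjusted p 0.111), -0.43 ± 0.16 for NTEVs against PBS (adjusted p 0.182) and 0.42 ± 0.16 for DNAse+ATEVs against ATEVs (adjusted p 0.255), and -0.04 ± 0.16 for DNAse+ATEVs against PBS (adjusted p 0.962). Without ATEVs replicate 1 the value for ATEVs against PBS was -0.63 and called (adjusted p 0.0443). Syvn1, the ubiquitin ligase HRD1, ranged from 59.4 to 85.4 CPM over all libraries, and its ATEVs libraries lay below the PBS ones (-0.23 ± 0.12, adjusted p 0.238). Sel1l, the adaptor that stabilises HRD1, ranged from 98.1 to 191 CPM, with DNAse+ATEVs libraries above PBS (0.26 ± 0.21, adjusted p 0.834). Edem1, which helps pass mannose-trimmed glycoproteins to degradation, ranged from 387 to 623 CPM and its groups overlapped in the comparisons made.

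Of the sensors and Xbp1, Xbp1 (ENSMUSG00000020484), the transcription factor whose mRNA IRE1 splices, was at 105, 94.1 and 97.0 CPM after DNAse+ATEVs, 124, 103 and 102 CPM after ATEVs, 104, 85.2 and 97.7 CPM after NTEVs, and 119, 127 and 123 CPM after PBS. The DNAse+ATEVs and NTEVs libraries lay below the PBS libraries and the ATEVs libraries overlapped with them. Total Xbp1 counts do not separate the spliced from the unspliced form. The log2 fold change was -0.32 ± 0.12 after DNAse+ATEVs (adjusted p 0.731), -0.17 ± 0.12 after ATEVs (adjusted p 0.365) and -0.36 ± 0.12 after NTEVs (adjusted p 0.121), and the last was called by DESeq2 (adjusted p 0.043). Ern1 was at 26.2, 49.9 and 54.6 CPM after DNAse+ATEVs, 73.8, 53.3 and 39.2 CPM after ATEVs, 24.8, 95.1 and 44.2 CPM after NTEVs, and 24.1, 31.6 and 38.4 CPM after PBS. The ATEVs libraries lay above the PBS libraries by a narrow gap (0.82 ± 0.41, adjusted p 0.215; called with no filter, 0.0433, and with the 2 groups alone, 0.0447), and NTEVs replicate 2 was the highest of all. Without NTEVs replicate 1 the log2 fold change of Ern1 for NTEVs against PBS was 1.17 and called (adjusted p 0.0499), and without NTEVs replicate 2 it was 0.12. Atf6 (135 to 244 CPM) and Eif2ak3 (23.6 to 41.3 CPM) had log2 fold changes between -0.20 and 0.25 in all 5 comparisons.

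Atf4, the factor that leads the integrated stress response mainly through its translation, was at 542, 570.2 and 584 CPM after DNAse+ATEVs, 591, 431 and 442 CPM after ATEVs, 492, 456 and 506 CPM after NTEVs, and 433, 596 and 533 CPM after PBS. The groups overlapped and the log2 fold changes against PBS were 0.12 ± 0.15, -0.09 ± 0.15 and -0.10 ± 0.15 after DNAse+ATEVs, ATEVs and NTEVs (adjusted p 0.867, 0.721 and 0.737). Among the other members of its arm, Trib3, Chac1 and Ddit3 spread far more widely within groups, while the synthesis enzymes Shmt2, Psat1 and Phgdh did not. Trib3 (ENSMUSG00000032715), a pseudokinase that restrains the ATF4 response, was at 55.6, 156 and 263 CPM after DNAse+ATEVs, 268, 35.5 and 28.4 CPM after ATEVs, 35.6, 191 and 49.8 CPM after NTEVs, and 15.3, 57.9 and 48.8 CPM after PBS. Each vesicle group held libraries within or near the PBS range and at least 1 far above it. The log2 fold changes against PBS were 1.96 ± 0.88 after DNAse+ATEVs (95% interval 0.06 to 3.87; adjusted p 0.824), 1.45 ± 0.87 after ATEVs (adjusted p 0.299) and 1.18 ± 0.87 after NTEVs (adjusted p 0.474). Without ATEVs replicate 1 the value for ATEVs against PBS was -0.34, and without NTEVs replicate 2 that for NTEVs was 0.06.

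Ddit3 (ENSMUSG00000025408), which encodes CHOP, a factor linked to cell death under lasting stress, was at 21.6, 60.4 and 44.7 CPM after DNAse+ATEVs, 122, 16.5 and 18.9 CPM after ATEVs, 17.8, 109 and 34.6 CPM after NTEVs, and 12.1, 17.6 and 23.5 CPM after PBS. As with Trib3, ATEVs replicate 1 and NTEVs replicate 2 stood far above the other libraries of their groups. Log2 fold changes against PBS were 1.25 ± 0.75, 1.57 ± 0.76 and 1.60 ± 0.76 after DNAse+ATEVs, ATEVs and NTEVs (adjusted p 0.826, 0.2 and 0.271). With no filter on low counts those for ATEVs and NTEVs were called (adjusted p 0.017 and 0.0167). Without ATEVs replicate 1 that for ATEVs was -0.00, and without NTEVs replicate 2 that for NTEVs was 0.55. Other annotated genes overlap 10.9% of the exon length of Ddit3.

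Atf5, an ATF4-related factor under the same translational control, was at 29.9, 65.9 and 63.7 CPM after DNAse+ATEVs, 55.8, 31.1 and 33.03 CPM after ATEVs, 31.0, 47.6 and 34.1 CPM after NTEVs, and 23.9, 35.4 and 37.3 CPM after PBS. DNAse+ATEVs replicates 2 and 3 were the highest of all 12, and the log2 fold change against PBS was 0.72 ± 0.30 (adjusted p 0.788). Atf3, an early stress-induced repressor, ranged from 118 to 198 CPM and its groups overlapped in the comparisons made. Ppp1r15a, the GADD34 subunit that directs dephosphorylation of eIF2, ranged from 36.6 to 104 CPM, and its NTEVs libraries lay above the PBS libraries (0.57 ± 0.33, adjusted p 0.365). Chac1 had only 3 to 56 counts in a library, and its fold changes had SEs of 0.74 to 0.76.

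Of the synthesis enzymes under ATF4, Asns (asparagine synthetase) ranged from 160.2 to 309 CPM, with a log2 fold change against PBS of 0.34 ± 0.22 after DNAse+ATEVs, 0.14 ± 0.22 after ATEVs and 0.33 ± 0.22 after NTEVs (adjusted p 0.826, 0.708 and 0.418). Shmt2, the mitochondrial serine hydroxymethyltransferase, was at 508, 428 and 410.0 CPM after DNAse+ATEVs, 357, 427 and 379 CPM after ATEVs, 578, 381 and 466 CPM after NTEVs, and 537, 532 and 477 CPM after PBS. Its ATEVs libraries lay below the PBS libraries, with a log2 fold change of -0.41 ± 0.16 (adjusted p 0.125). Psat1, the aminotransferase of serine synthesis, was lower in the NTEVs than in the PBS libraries without overlap (-0.30 ± 0.16, adjusted p 0.325). Phgdh varied least of all members, from 599 to 752 CPM, and its log2 fold changes stayed between -0.07 and 0.09.

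Members whose libraries did not overlap between groups were few. After DNAse+ATEVs against PBS 1 member was higher (Sel1l; 7.69% of all genes were so) and 1 lower (Xbp1; 5.68%). After ATEVs against PBS 2 were higher (Dnajb9 and Ern1; 16.3% of all genes) and 4 lower (Hsp90b1, Canx, Syvn1 and Shmt2; 16.8%). After NTEVs against PBS 1 was higher (Ppp1r15a; 12.8%) and 3 lower (Herpud1, Xbp1 and Psat1; 11.1%). Between DNAse+ATEVs and ATEVs Canx was higher (10.0% of all genes) and Dnajb9 lower (10.1%), and between ATEVs and NTEVs Dnajb9 was higher (8.61%) and Canx lower (7.16%). Each of these counts is a smaller share of the 33 members than the share of all genes beside it.

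The larger pattern among the members lay between libraries of the same group. The within-group SD of Trib3 was 1.34 on the log2 scale, above 99.9% of tested genes. It was 1.19 for Chac1 and 1.13 for Ddit3 (99.8th and 99.7th percentile), and 0.65 for Calr, 0.63 for Ern1 and 0.63 for Sdf2l1 (94.8th to 95.4th). Trib3 differed 17.5-fold between its highest and lowest library and Ddit3 10.1-fold. Phgdh, Xbp1, Syvn1 and Dnajb9 were among the steadier genes, with SDs of 0.11 to 0.13 on the log2 scale (7.8th to 12.4th percentile). Shmt2 and Psat1 (SD 0.19 and 0.20) also lay below the median of all tested genes, 0.24, as did Canx (0.23).

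**Figure D4:**
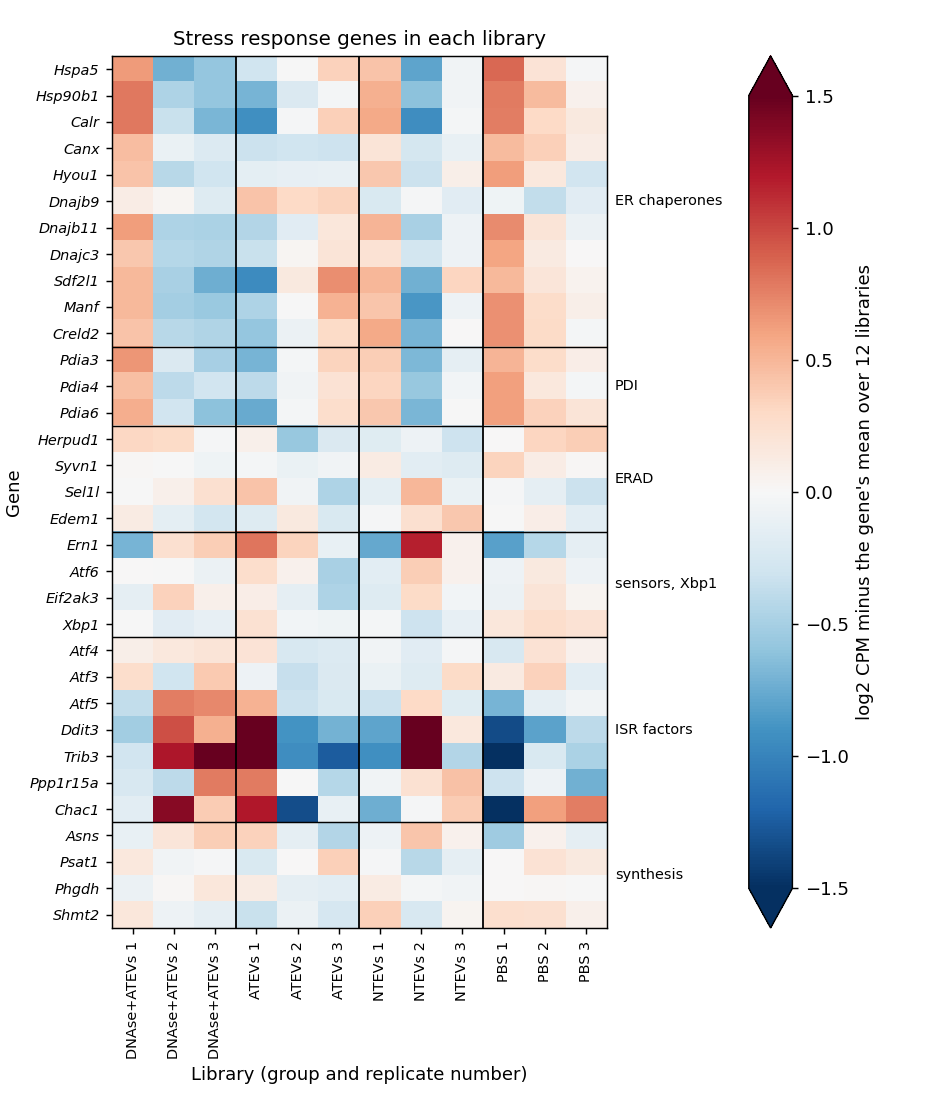
Log2 CPM of each of the 33 genes minus its mean over the 12 libraries, from blue (below) to red (above), with libraries in columns by group and genes in rows by role. The chaperone and isomerase rows other than Dnajb9 are red together in DNAse+ATEVs 1, NTEVs 1 and PBS 1 and blue together in DNAse+ATEVs 2 and 3, ATEVs 1 and NTEVs 2, where the Ddit3 and Trib3 rows are red.

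The chaperones and isomerases other than Dnajb9 varied as a block across libraries. The summed level of the 14 was 8026, 4045 and 3643 CPM after DNAse+ATEVs, 3484, 4825 and 5845 CPM after ATEVs, 6916, 3348 and 4968 CPM after NTEVs, and 8180, 6376 and 5414 CPM after PBS. DNAse+ATEVs replicate 1, NTEVs replicate 1 and PBS replicate 1 were the 3 highest of the 12 libraries, and the 4 lowest were NTEVs replicate 2, ATEVs replicate 1 and DNAse+ATEVs replicates 3 and 2. The sum differed 2.44-fold between the extremes, against 1.12-fold for the TMM factors. As an unscaled share of counts it differed 2.23-fold, from 0.348 to 0.776%. The TMM factor was below 0.97 in the 3 highest libraries and at least 1.04 in the 4 lowest, so the scaling moved with the pattern, and its part in it was not tested. In 3 libraries (DNAse+ATEVs replicate 3, NTEVs replicate 2 and DNAse+ATEVs replicate 2) 0, 0 and 1 of the 14 genes lay above their 12-library mean, and in PBS replicate 1 it was 13 of 14. In PBS replicate 1 the one below its mean was Dnajb9, and in ATEVs replicate 1 Dnajb9 was the one above its mean.

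Trib3, Ddit3, Atf5 and Asns ran the other way. The 4 libraries with the highest Trib3 (156 to 268 CPM) were also those with the highest Ddit3 (44.7 to 122 CPM), Atf5 (47.6 to 65.9 CPM) and Asns (261 to 309 CPM), and they were the 4 with the lowest Hspa5 (370.1 to 522 CPM). They were DNAse+ATEVs replicates 2 and 3, ATEVs replicate 1 and NTEVs replicate 2. PBS replicate 1, the library with the highest Hspa5, had the lowest Trib3, Ddit3, Atf5 and Asns. The 4 libraries came from all 3 vesicle groups and from 0 of the PBS libraries, and each vesicle group also held at least 1 library without the pattern. Psat1 and Shmt2 lay below their 12-library mean in all 4, on the side of the chaperones. Of the 11 factors, feedback genes and synthesis enzymes of the ATF4 arm, 7 and 9 lay above their mean in DNAse+ATEVs replicates 2 and 3, 8 in ATEVs replicate 1 and 5 in NTEVs replicate 2.

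**Figure D5:**
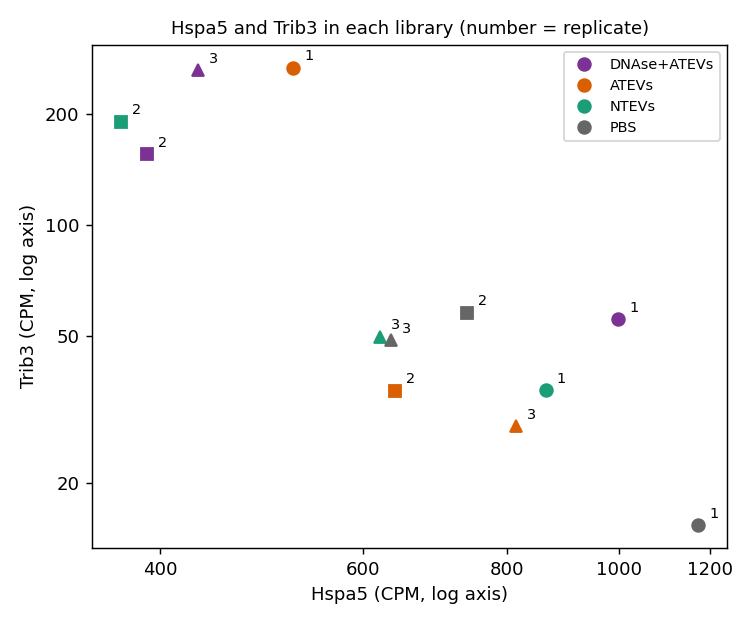
Trib3 against Hspa5 in each of the 12 libraries, in TMM-scaled CPM on log axes, with colour for the group and shape and number for the replicate. DNAse+ATEVs 2 and 3, ATEVs 1 and NTEVs 2 lie at the upper left, with Hspa5 at 522 CPM or less and Trib3 at 156 CPM or more, apart from the other 8 libraries.

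By promoter element, all 8 members with an ER stress response element had log2 fold changes below 0 in each comparison with PBS. Of all tested genes 49.5% lay below 0 after DNAse+ATEVs, 46.7% after ATEVs and 50.3% after NTEVs. The medians of the 8 were -0.39, -0.47 and -0.40 in that order, beside 0.00, 0.03 and -0.00 over all tested genes. For ATEVs Hspa5 and Dnajc3 were above 0 without replicate 1 of every group (0.10 and 0.06). Of the 8, 7 belong to the chaperones and isomerases, whose medians depended on PBS replicate 1 as given above. Of the remaining chaperones and isomerases, Dnajb11 (-0.44), Pdia3 (-0.38), Hyou1 (-0.34), Pdia4 (-0.32), Manf (-0.30) and Sdf2l1 (-0.14) also lay below 0 after ATEVs. Hyou1 and Manf had no window, and Dnajb9 lay above 0 (0.56). Other than Dnajb9, the chaperones and isomerases varied together within groups (median pairwise correlation 0.938), so the 7 are not separate observations. The 5 members with an amino acid response element had medians of 0.34, 0.12 and -0.11. The 16 members with a window and no match had medians of 0.05, -0.06 and -0.00. None of these members was called, and Ddit3, which varied with Trib3 across libraries, is in the set without a match.

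Among other genes of the pathways, the ATF4 targets and the heat shock proteins came nearest to the same split between libraries. Of 20 tested ATF4 targets outside the members, 17, 14, 14 and 15 lay above their 12-library mean in DNAse+ATEVs replicates 2 and 3, ATEVs replicate 1 and NTEVs replicate 2, against 3 to 11 in the other 8 libraries. Of 11 tested heat shock proteins of the cytosol and mitochondria, 9 to 11 lay above their mean in DNAse+ATEVs replicate 1, NTEVs replicate 1 and all PBS libraries, against 1 to 4 in the other 7 libraries. Of 31 genes of ER folding, translocation and degradation, 22 to 26 lay above their mean in DNAse+ATEVs replicate 1, NTEVs replicate 1 and PBS replicates 1 and 2, and 6 to 9 in DNAse+ATEVs replicates 2 and 3, ATEVs replicate 1 and NTEVs replicates 2 and 3. The 12 tRNA synthetases did not follow the split, with 9 or 10 above their mean in DNAse+ATEVs replicates 1 and 2 and NTEVs replicates 1 and 2 alike. Of 13 eIF2 kinases, eIF2 and eIF2B subunits and phosphatase factors, 8 to 10 lay above their mean in DNAse+ATEVs replicate 1, NTEVs replicate 1 and PBS replicates 1 and 2, against 2 to 7 in the other libraries. Hsph1, a cytosolic chaperone, ranged from 137 to 502 CPM over the libraries.

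Calls in these other lists fell on Wfs1, Eif2ak2, Stc2 and Slc7a11, with at most 1 gene a direction in a list and comparison. Wfs1, an ER membrane protein of calcium handling, was at 15.2, 13.0 and 12.9 CPM after DNAse+ATEVs, 28.6, 28.0 and 20.4 CPM after ATEVs, 16.98, 17.34 and 17 CPM after NTEVs, and 18.34, 17.04 and 16.85 CPM after PBS. Its ATEVs libraries lay above all others and its DNAse+ATEVs libraries below all others. Wfs1 fell in DNAse+ATEVs against ATEVs (-0.91 ± 0.15, adjusted p 0.00629) and rose in ATEVs against PBS (0.56 ± 0.15, adjusted p 0.0474). The first call was lost without DNAse+ATEVs replicate 2 (adjusted p 0.0541), and the second in 5 of 6 fits that left out 1 library, all but that without ATEVs replicate 3. The second was also lost with the 2 groups alone (adjusted p 0.0535) and without replicate 1 of every group (0.0871), while its log2 fold change stayed between 0.47 and 0.71 in all alternatives. In the list of ER folding, translocation and degradation 1 of 31 tested genes was called in each of these comparisons, with list medians of 0.05 and -0.11. Of all genes 1.46% were called in DNAse+ATEVs against ATEVs and 4.74% in ATEVs against PBS.

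Eif2ak2, the RNA-activated eIF2 kinase PKR, which interferon also induces, was at 39.4, 33.6 and 31.2 CPM after DNAse+ATEVs, 55.8, 50.3 and 40.8 CPM after ATEVs, 34.3, 40.3 and 37.5 CPM after NTEVs, and 33.7, 34.7 and 33.6 CPM after PBS. It rose in ATEVs against PBS (0.53 ± 0.14, adjusted p 0.0457), where 4.74% of all genes were called. It was the 1 gene called among 13 eIF2 kinases, eIF2 and eIF2B subunits and phosphatase factors. That call was lost in 5 of 6 fits without 1 library, all but that without ATEVs replicate 3, and without replicate 1 of every group (adjusted p 0.0877). PERK, the kinase of the ER, was not called in that comparison (Eif2ak3 -0.20 ± 0.18, adjusted p 0.49).

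Stc2, a secreted glycoprotein induced by ER stress, was at 121, 121 and 121 CPM after DNAse+ATEVs, 90.05, 59.3 and 77.7 CPM after ATEVs, 74.3, 68.3 and 67.4 CPM after NTEVs, and 101, 146 and 135 CPM after PBS. The ATEVs and NTEVs libraries lay below all DNAse+ATEVs and PBS libraries. Stc2 fell in ATEVs against PBS (-0.75 ± 0.16, adjusted p 0.0197) and in NTEVs against PBS (-0.86 ± 0.16, adjusted p 0.0169), and each call was lost in 4 of 6 fits without 1 library, which were those without replicate 2 or 3 of either group. The call after NTEVs was also lost with the 2 groups alone (adjusted p 0.0648). For DNAse+ATEVs against ATEVs the value was 0.67 ± 0.16 (adjusted p 0.0604). Slc7a11, the cystine importer, was at 35.8, 30.2 and 18.4 CPM after DNAse+ATEVs, 35.0, 71.0 and 69.0 CPM after ATEVs, 68.1, 77.7 and 73.0 CPM after NTEVs, and 32.4, 33.4 and 24.9 CPM after PBS. It rose in NTEVs against PBS (1.27 ± 0.27, adjusted p 0.0281), a call lost in 5 of 6 fits without 1 library, all but that without NTEVs replicate 1. Stc2 and Slc7a11 were the called genes among 20 tested ATF4 targets outside the members, with list medians of 0.11 for ATEVs and 0.19 for NTEVs against PBS. Of all genes 4.74% were called after ATEVs and 2.31% after NTEVs against PBS.

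The 12 cytosolic tRNA synthetases, which ATF4 induces in part, had 0 calls by edgeR in each comparison. In DNAse+ATEVs against ATEVs 12 of 12 had log2 fold changes above 0 (median 0.31, highest 0.42, smallest adjusted p 0.214) and 7 had libraries without overlap, against 10.0% of all genes. In ATEVs against NTEVs 12 of 12 were below 0 (median -0.26, smallest adjusted p 0.194) and 3 had libraries without overlap, against 7.16% of all genes. As both comparisons share the ATEVs libraries, they are not separate observations, and the 12 genes are not replicates of a condition. Against PBS 12 of 12 were above 0 after DNAse+ATEVs (median 0.11), 3 of 12 after ATEVs (median -0.24) and 8 of 12 after NTEVs (median 0.07). In ATEVs replicates 2 and 3 0 of the 12 lay above their 12-library mean, and in ATEVs replicate 1 it was 8. The 11 tested heat shock proteins also had 0 calls by edgeR, with medians of -0.29 after DNAse+ATEVs, -0.43 after ATEVs and -0.28 after NTEVs against PBS.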

How the data were processed

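Per the labels' protocols, column-purified RNA was sequenced from TruSeq stranded mRNA libraries. The build mm9, Cufflinks 2.1.1, TopHat, TopHat2 2.0.11 and bcl2fastq 2.19 are named in the submitters' processing notes. The read counter, annotation and strand setting are not given in the sources used here. The values used are whole-number counts per gene and library as deposited by the authors, with no normalization visible in the values. Symbols and exon lengths came from GENCODE M21.

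The test was edgeR 4.0.16's quasi-likelihood F test, run with limma 3.58.1 under R 4.3.3. After filterByExpr (minimum count 10, minimum total 15) and TMM scaling, all 12 libraries entered 1 model with group means. The F test was two-sided, with Benjamini-Hochberg adjustment over the 13261 genes of a comparison and calls at an adjusted p under 0.05. Standard errors and 95% intervals derive from that test. Library totals of 19392942 to 30383572 counts set the counting error, which is relatively largest for Chac1 among the members. Every replicate pair differed by more than counting noise. Alternatives were DESeq2 1.42.0, RLE scaling, no filter, a replicate block, each comparison's 2 groups alone, each library left out, and replicate 1 of every group left out.

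All 33 members are described. Of each other list, up to 4 called genes with the smallest adjusted p are named in a comparison. Members, lists and tests were chosen with earlier results of these data known. Genes named as high or low in single libraries, and Hsph1, were chosen after their values were seen. The scripts were tested on simulated data. Retention signals in the proteins were not analysed here.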

Additional observations from a re-analysis of the deposited data

How the results depend on the processing

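RLE scaling changed no member's call. Members called against PBS after ATEVs numbered 3 with no filter (Canx, Ern1 and Ddit3), 2 with DESeq2 (Canx and Dnajb9), 2 with the replicate block (Canx and Dnajb9) and 2 with the 2 groups alone (Canx and Ern1), and after NTEVs 1 with no filter (Ddit3) and 1 with DESeq2 (Xbp1); DESeq2 also called 1 for ATEVs against NTEVs. All genes called after ATEVs against PBS, 628 in the model reported, numbered 1317 with no filter, 1538 with DESeq2, 1440 with the replicate block and 1244 with the 2 groups alone. After DNAse+ATEVs against PBS there were 47 with no filter, 38 with DESeq2 and 1 with the block. After NTEVs against PBS (306) there were 876 with no filter, 861 with DESeq2 and 19 with the 2 groups alone. For DNAse+ATEVs against ATEVs (194) there were 394 with no filter and 495 with DESeq2, and for ATEVs against NTEVs (124) 242 with no filter, 373 with DESeq2 and 82 with the 2 groups alone. The cause of these shifts was not tested.

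Leaving out libraries, members called ranged from 0 to 1 for ATEVs against PBS, 0 to 0 for DNAse+ATEVs against PBS, 0 to 3 for NTEVs against PBS, 0 to 5 for DNAse+ATEVs against ATEVs and 0 to 2 for ATEVs against NTEVs. All genes called ranged from 169 to 1029, 0 to 39, 34 to 1685, 78 to 816 and 70 to 599 in that order. The highest member counts in the last 3 came from leaving out replicate 1 of every group, an alternative chosen after seeing the data. There Trib3 in DNAse+ATEVs against ATEVs was called at 2.72 (adjusted p 0.00938), and 2 members were called with the opposite sign to the model of all libraries, Ddit3 at 1.57 in DNAse+ATEVs against ATEVs (adjusted p 0.0403) and Trib3 at -1.92 in ATEVs against NTEVs (adjusted p 0.0428). Leaving out 1 library at a time or replicate 1 of every group, the Ddit3 value ran from -0.74 to 1.57 and the Trib3 value from -1.92 to 1.40. Over 165 member fold changes, 89 kept their sign in every alternative and a member was called in 25 of 1980 alternative fits. Deviations of same-numbered libraries of 2 compared groups had correlations of -0.38 to 0.52 over genes, so the numbers are not taken to pair the libraries. The highest were for replicate 1, at 0.519 between NTEVs and PBS and 0.44 between DNAse+ATEVs and PBS. For ATEVs replicate 1 they were -0.158 with PBS, -0.382 with DNAse+ATEVs and -0.322 with NTEVs. A tie between some of the replicate 1 libraries was not tested. With 3 libraries a group, 95% intervals as wide as that of Trib3 leave changes of several-fold undetectable.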
